A study of Homo sapiens with 9 samples.

Results

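The 10 genes described here are transcription factors, cadherins and cytoskeletal or signalling genes linked to a mesenchymal or phenotype-switched state, by their gain or their loss: *ZEB1*, *ZEB2*, *SNAI1*, *SNAI2*, *TWIST1*, *CDH1*, *CDH2*, *VIM*, *SOX9* and *WNT5A*. They were chosen by symbol, and all 10 had a row among the 22605 features of the count table, of which 20463 were annotated genes. mRNA was sequenced from A375, an established melanoma cell line of human origin with an activating BRAF mutation. Cells were left untreated (control) or received Salvianolic acid B (SalB), a phenolic compound of Salvia miltiorrhiza root, at 100 µM or at 200 µM for 48 h. There were 3 libraries in each group, described as biological replicates, and the labels place all 9 libraries in 1 batch. Controls were grown alike but without SalB, and no vehicle is named for them.

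In epithelia, the ZEB, SNAI and TWIST proteins repress junction genes such as *CDH1* and thereby drive the epithelial-mesenchymal transition, in which E-cadherin gives way to N-cadherin and keratin filaments give way to vimentin. Melanocytes come from the neural crest and are not epithelial, so melanoma uses these factors differently: ZEB2 and SNAI2 belong to the differentiated melanocyte program, whereas ZEB1 and TWIST1 are known from dedifferentiated, invasive melanoma cells. E-cadherin ties a normal melanocyte to its neighbouring keratinocytes, and the exchange of E-cadherin for N-cadherin is the cadherin switch of melanoma.

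Total counts were 27348621 to 30629685 per library, and the 3 libraries of a group differed from each other by more than counting noise. At 200 µM, replicate 3 stood apart: mitochondrially encoded mRNAs took 4.75% of its counts, against 1.87% and 1.83% in replicates 1 and 2 and 2.11% to 3.15% in the control and 100 µM libraries. With genes split into 8 bins by GC content, the top bin minus the bottom bin, as log2 deviation from control, came to -0.31 in that library, against 0.48 and 0.96 in the other libraries at 200 µM, 0.69 to 0.93 at 100 µM and -0.16 to 0.16 in control. The gap thus lay above control in 5 of the 6 treated libraries. For 200 µM against control, the fold changes of the 9 genes tested and the counts are given below with all libraries and without replicate 3, and its part in the ratios can be read from their values by library. In 100 µM against control this library takes part only through the gene filter, the scaling and the fit shared by all 9 libraries. Of the melanocyte markers, the lineage factors *SOX10* and *MITF* were present in control (341 ± 18.8 and 28.6 ± 2.51 CPM, reads scaled by library size with TMM factors, SD, n = 3), while the pigment genes *TYR*, *MLANA* and *PMEL* averaged 0.0570, 0.253 and 0.629 CPM. The 11 melanocyte markers, mostly *SOX10*, summed to 467.1 to 498.5 CPM in control, 653.7 to 661.4 CPM at 100 µM and 523.2 to 684.5 CPM at 200 µM. The epithelial marker *EPCAM* averaged at most 0.246 CPM in any group, and *KRT5* had no count. The keratin *KRT18* was present (192 ± 3.36 CPM in control). The 10 keratinocyte and epithelial markers summed to 278.8 to 290.5 CPM in control, 341.7 to 373.6 CPM at 100 µM and 339.6 to 448.3 CPM at 200 µM. Leukocyte markers summed to 21.6 to 25.2, 18.1 to 20.2 and 59.2 to 84.6 CPM in the same order, mostly from *CD68*, while *PTPRC* averaged at most 0.0455 CPM and *CD3E* had no count. Fibroblast markers summed to 47.5 to 51.2, 74.1 to 77.6 and 41.5 to 45.4 CPM, and endothelial markers to 11.3 to 13.0, 4.37 to 4.64 and 10.8 to 12.5 CPM. In such bulk RNA, fewer cells of a type and less RNA per cell cannot be told apart.

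In untreated A375 cells *VIM* and *CDH2* were the highest of these transcripts. To compare levels between genes, CPM was divided by the length of each gene's merged exons. *VIM*, which encodes the mesenchymal intermediate filament protein vimentin, stood at 506 ± 6.78 CPM per kb of exon (SD, n = 3) and ranked at place 54 among the genes tested. *CDH2*, encoding N-cadherin, followed at 19.1 ± 0.822, then *TWIST1* at 14.3 ± 0.392 and *ZEB1* at 12.6 ± 0.451 CPM per kb. *SNAI1* (7.47 ± 0.931) and *WNT5A* (7.18 ± 0.586) overlapped in their library values, as did *ZEB2* (1.36 ± 0.152) and *SNAI2* (1.15 ± 0.170), so neither pair can be put in order. *SOX9* was lowest of the 9 genes tested, at 0.333 ± 0.0632 CPM per kb. The exon length includes every annotated transcript, which matters most for *ZEB2*, with 25.1 kb of merged exons and a principal transcript of 9.54 kb. Per kb of the principal transcript, an alternative added after the data were seen, *ZEB1* (20.0) stood above *TWIST1* (17.5) in control and *ZEB2* (3.57) above *SNAI2* (1.61), so these orders depend on the length used.

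At 100 µM the order was *VIM* (703 ± 22.7 CPM per kb), *CDH2* (39.3 ± 1.03), *SNAI1* (12.7 ± 1.37), *TWIST1* (11.4 ± 0.802), *ZEB1* (10.0 ± 0.840), *WNT5A* (6.05 ± 0.488), *ZEB2* (1.87 ± 0.115), *SNAI2* (0.985 ± 0.0584) and *SOX9* (0.271 ± 0.0967). The libraries of *SNAI1* and *TWIST1* overlapped there. At 200 µM *SNAI1* (16.6 ± 1.28 CPM per kb) and *CDH2* (16.2 ± 2.81) were side by side below *VIM* (636 ± 45.5). *TWIST1* (11.3 ± 2.07) and *ZEB1* (11.3 ± 4.89) came next and overlapped, ahead of *WNT5A* (3.91 ± 1.38), *SNAI2* (2.28 ± 0.901), *ZEB2* (2.03 ± 0.755) and *SOX9* (0.730 ± 0.109). The libraries of *ZEB1* also overlapped those of *SNAI1* and *CDH2*, and those of *WNT5A*, *SNAI2* and *ZEB2* overlapped each other. Per kb of the principal transcript the order at 100 µM was *ZEB1* (15.96), *TWIST1* (13.95) and *SNAI1* (12.7), and *ZEB1* and *SNAI1* did not overlap. At 200 µM *ZEB1* (18.0) then exceeded *SNAI1* (16.6), *ZEB2* (5.34) exceeded *WNT5A* (4.68) and *SNAI2* (3.19), and each of these pairs overlapped. By either length *SNAI1* and *CDH2* overlapped at 200 µM and did not overlap in control.

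**Figure D1:**
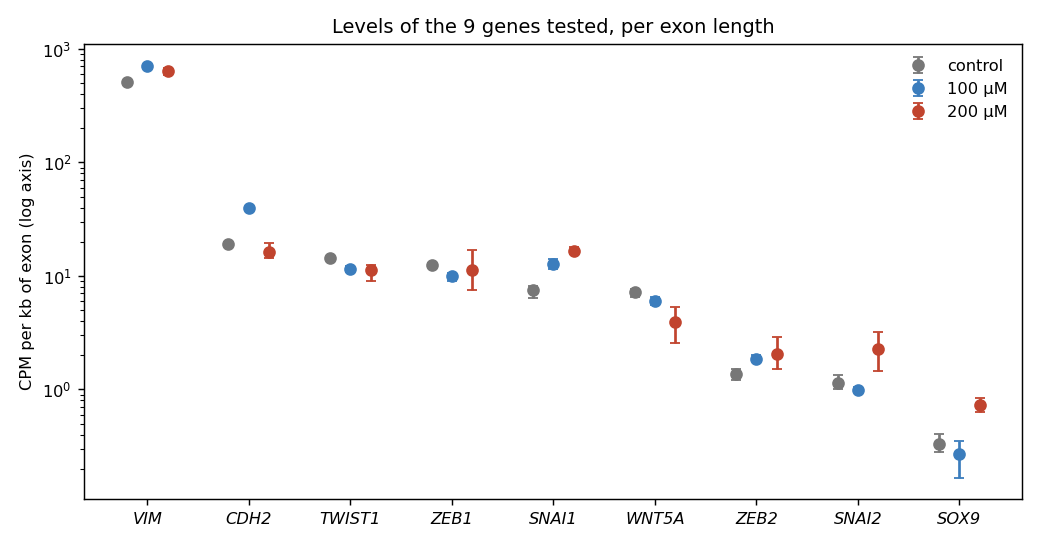
Level of each of the 9 genes tested, as CPM per kb of merged exon on a log axis, at control, 100 µM and 200 µM. Points are means of 3 libraries and bars run from the lowest to the highest library; VIM lies near 506 to 703 in all groups, and SOX9 lies below 1.

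*CDH1* (ENSG00000039068, GRCh38 chromosome 16, 68737225 to 68835548), the E-cadherin gene, was at or near the limit of detection in every group. It had 2, 0 and 0 counts in the control libraries, 0, 0 and 12 counts at 100 µM, and 0, 4 and 0 counts at 200 µM. In 6 of the 9 libraries it had no count, which at 3 counts allows a level of up to 0.0963 to 0.119 CPM, counting error only. The gene did not pass the filter on low counts and was not tested, and no difference was detectable at this depth. *CDH2* had 1984 to 6148 counts in the same libraries. E-cadherin transcript thus stayed scarce beside N-cadherin in all 9 libraries.

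*CDH2* (ENSG00000170558, chromosome 18, 27950966 to 28177446, minus strand), the N-cadherin gene, was higher than in control at 100 µM, and was not at 200 µM. A gene is called, or said to rise or fall, where edgeR's quasi-likelihood test across all genes gave a Benjamini-Hochberg adjusted p under 0.05. Control libraries had 94.2, 98.9 and 90.8 CPM, the 100 µM libraries 189, 199 and 194 CPM, and the 200 µM libraries 74.3, 70.6 and 96.3 CPM. Every 100 µM library lay at about the same raised level, and the 200 µM libraries lay below all of them, with replicate 3 within the control range. At 100 µM against control *CDH2* rose 2.05-fold, a log2 fold change of 1.04 ± 0.12 (SE, edgeR quasi-likelihood adjusted p = 2.1e-04). At 200 µM against control the difference was not called (-0.24 ± 0.11, adjusted p = 0.14). Without 200 µM replicate 3 it was called, at -0.37 (adjusted p = 4.2e-04), and after removal of each library's GC trend at -0.23 (adjusted p = 0.030). Between the doses *CDH2* fell 2.42-fold (-1.27 ± 0.12, adjusted p = 3.3e-05), and by 1.43 on the log2 scale without 200 µM replicate 3.

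*VIM* (ENSG00000026025, chromosome 10, 17228259 to 17237593) rose at both doses. It had 2582, 2605 and 2651 CPM in control, 3746, 3624 and 3512 CPM at 100 µM, and 3033, 3305 and 3500 CPM at 200 µM. No treated library reached down to the control level. The increase was 1.39-fold at 100 µM (log2 fold change 0.47 ± 0.07, adjusted p = 9.2e-04) and 1.26-fold at 200 µM (0.33 ± 0.07, adjusted p = 0.0055), where it was 0.29 without 200 µM replicate 3. The difference between the doses was not called (-0.15 ± 0.07, 95% interval -0.30 to 0.01, adjusted p = 0.12), but was called as lower at 200 µM without 200 µM replicate 3 (-0.20, adjusted p = 0.0071), with total-count scaling (-0.23, 0.013) and after the GC trend was removed (-0.17, 0.043). The strand setting of the counting is not given, and 12.4% of the exon length of *VIM* is shared with its antisense gene *VIM-AS1* and 12% with a further antisense gene, so reads of these genes cannot be told apart.

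**Figure D2:**
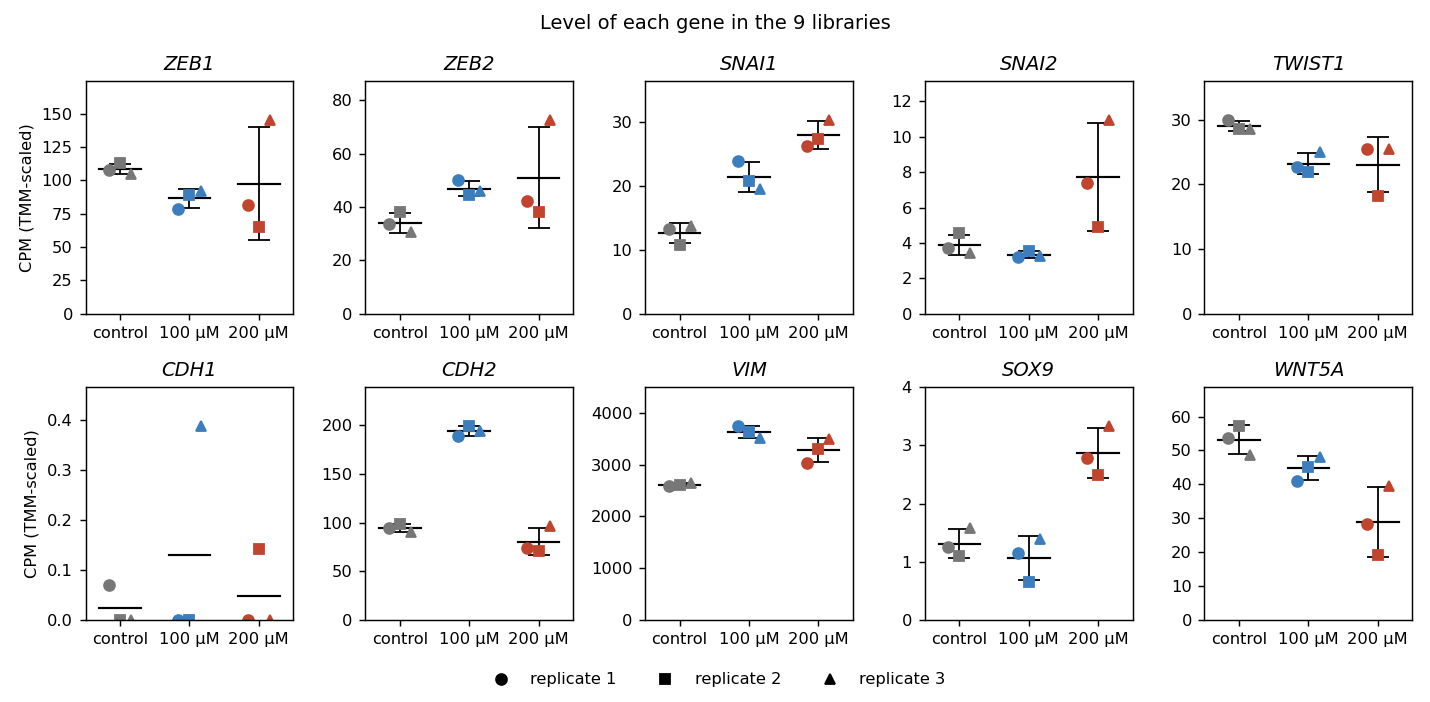
CPM (TMM-scaled) of each gene in the 3 control, 3 libraries at 100 µM and 3 at 200 µM; symbols mark the replicate, lines the mean and bars the SD (not drawn for CDH1, with 6 libraries at 0). CDH2 lies at 189 to 199 CPM in the 100 µM libraries and below 100 CPM in all others. Replicate 3 at 200 µM (triangles) is the highest of its group for every gene tested, narrowly so for TWIST1.

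The ZEB genes encode zinc-finger homeobox repressors that bind E-box DNA, and both mRNAs are classic targets of the miR-200 family of small RNAs, which holds them down in epithelial cells. The mature members of the family are shown with the seed (bases 2 to 8) in capitals (RefSeq, GRCh38.p14), because their matches in the ZEB transcripts are the sequence feature by which these genes stand out among the members.
hsa-miR-200b-3p: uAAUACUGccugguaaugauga
hsa-miR-200c-3p: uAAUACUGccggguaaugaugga
hsa-miR-429: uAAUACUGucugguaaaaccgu
hsa-miR-200a-3p: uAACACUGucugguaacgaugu
hsa-miR-141-3p: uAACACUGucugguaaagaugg
The family falls into a group of 3 with the seed AAUACUG and a pair with the seed AACACUG. The 3′ UTR of the principal *ZEB1* transcript (GENCODE release 29, 1938 bases) holds 5 copies of CAGTATT, the match to the first seed, and 3 of CAGTGTT, the match to the second. That of *ZEB2* (5370 bases) holds 5 and 4. Of the 19158 genes whose principal 3′ UTR was searched on the transcript strand, 26% hold at least 1 match to either seed, but only 0.0470% hold 8 or more and 0.0261% hold 9 or more. These shares make no allowance for length, and the median 3′ UTR searched has 877 bases. Per kb of 3′ UTR *ZEB1* holds 4.13 matches and *ZEB2* 1.68. *WNT5A* has 2 matches, *SNAI2* and *SOX9* have 1 each, and the other 5 genes have none. The sites shown for each ZEB gene are its first match to each seed after the stop codon, in capitals.
ZEB1, chr10:31527618-31527640, plus strand: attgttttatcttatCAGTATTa
ZEB1, chr10:31528031-31528053, plus strand: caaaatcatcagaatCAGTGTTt
ZEB2, chr2:144389052-144389074, minus strand: cgcactaccatacatCAGTATTt
ZEB2, chr2:144389236-144389258, minus strand: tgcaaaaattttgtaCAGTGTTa
A match in letters is not a measured site, and the microRNAs themselves were not measured in these poly-A libraries.

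*ZEB1* (ENSG00000148516, chromosome 10, 31318495 to 31529814) had 108, 113 and 105 CPM in control, 78.3, 89.2 and 92.1 CPM at 100 µM, and 81.8, 65.4 and 146 CPM at 200 µM. The 100 µM libraries and 2 of the 200 µM libraries lay below all control libraries, and 200 µM replicate 3 lay above them. No comparison of *ZEB1* was called, with log2 fold changes of -0.33 ± 0.25 at 100 µM (adjusted p = 0.33) and -0.16 ± 0.25 at 200 µM (adjusted p = 0.66). Without 200 µM replicate 3 *ZEB1* fell at both doses, by 0.30 at 100 µM (adjusted p = 0.012) and by 0.55 at 200 µM (adjusted p = 8.7e-04), and a fit of control and 100 µM alone gave -0.32 (adjusted p = 0.0010). After removal of the GC trend the log2 fold change at 100 µM was 0.02 (adjusted p = 0.93).

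*ZEB2* (ENSG00000169554, chromosome 2, 144364364 to 144524583, minus strand) had 33.6, 38.1 and 30.5 CPM in control, 50.1, 44.6 and 45.9 CPM at 100 µM, and 42.2, 38.0 and 72.6 CPM at 200 µM. All 100 µM libraries were above control, and at 200 µM replicate 2 fell within the control range while replicate 3 was the highest of all. *ZEB2* was not called in the fit of all libraries, at 0.46 ± 0.22 for 100 µM (adjusted p = 0.13) and 0.58 ± 0.22 for 200 µM (adjusted p = 0.067). It was called as higher at 100 µM without 200 µM replicate 3 (0.48, adjusted p = 7.9e-04), in a fit restricted to the 2 groups (0.47, 3.8e-04) and after removal of the GC trend (0.79, 0.0019). At 200 µM it was called without replicate 3 (0.25, adjusted p = 0.049), without replicate 2 (0.75, 0.017), in DESeq2 (0.59, 0.028) and after removal of the GC trend (0.71, 0.0024). Antisense genes share 4.23% of the *ZEB1* exons and 5.18% of the *ZEB2* exons.

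Because 200 µM replicate 3 was the highest of its group for both genes, as for every gene tested, the ratio of *ZEB2* to *ZEB1* within each library was also taken. This measure was chosen after the values were seen. Per kb of exon the ratio was 0.108, 0.116 and 0.1001 in control, 0.221, 0.173 and 0.172 at 100 µM, and 0.178, 0.201 and 0.172 at 200 µM. All 6 treated libraries lay above all 3 control libraries, replicate 3 of 200 µM included. Single genes often did not overlap control either, at 67% of all genes at 100 µM and 48.8% at 200 µM. No such share was taken over other pairs of genes. The ratio was 1.74 times the control ratio at 100 µM and 1.70 times at 200 µM (exact two-sided permutation p = 0.1 for each dose, the smallest that 3 against 3 libraries allow), and the doses overlapped (p = 0.9). Both doses were set against the same control libraries.

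*SNAI1* (ENSG00000124216, chromosome 20, 49982999 to 49988886), which encodes the zinc-finger repressor Snail, rose with dose. It had 13.2, 10.8 and 13.8 CPM in control, 24.0, 20.8 and 19.4 CPM at 100 µM, and 26.2, 27.3 and 30.3 CPM at 200 µM. The 3 groups did not overlap. The increase was 1.70-fold at 100 µM (log2 fold change 0.76 ± 0.13, adjusted p = 0.0019) and 2.22-fold at 200 µM (1.15 ± 0.13, adjusted p = 1.9e-04). Both calls held in each of the 19 alternative settings, the first at 0.48 to 0.85 with adjusted p up to 0.037. The second was 1.10 without 200 µM replicate 3. The step between the doses, 0.38 ± 0.13 (adjusted p = 0.034), was 0.31 without that library (adjusted p = 0.048) and was lost in 8 of 19 settings, with values from 0.30 to 0.60 and adjusted p up to 0.14 over them.

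*SNAI2* (ENSG00000019549, chromosome 8, 48917604 to 48921740, minus strand) encodes Slug, a relative of Snail needed for neural crest and melanocyte development. It was a low transcript with 3.71, 4.55 and 3.44 CPM in control, 3.21, 3.57 and 3.24 CPM at 100 µM, and 7.40, 4.88 and 10.96 CPM at 200 µM. The 200 µM libraries were above all others but spread more than 2-fold, between replicate 2 and replicate 3. At 200 µM against control *SNAI2* rose 1.98-fold (0.99 ± 0.26, adjusted p = 0.017). That call ended without control replicate 1 (0.95, adjusted p = 0.061), without control replicate 3 (0.90, 0.064) and in a fit restricted to the 2 groups (0.99, 0.05). Without 200 µM replicate 3 the log2 fold change was 0.67 (adjusted p = 0.015). At 100 µM against control it was not called (-0.22 ± 0.27, 95% interval -0.83 to 0.38), and 200 µM was 2.31-fold above 100 µM (1.21 ± 0.27, adjusted p = 0.0056), a call kept in all 19 settings, at 0.86 without 200 µM replicate 3.

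*TWIST1* (ENSG00000122691, chromosome 7, 19020991 to 19117672, minus strand), a basic helix-loop-helix factor, had 30.0, 28.6 and 28.6 CPM in control, 22.8, 21.9 and 25.1 CPM at 100 µM, and 25.5, 18.2 and 25.5 CPM at 200 µM. Each treated library lay below each control library, yet the adjusted p missed the threshold at 100 µM (-0.32 ± 0.13, 0.088) and at 200 µM (-0.34 ± 0.13, 0.079). Without 200 µM replicate 3 *TWIST1* fell at both doses, by 0.30 at 100 µM (adjusted p = 0.037) and by 0.40 at 200 µM (adjusted p = 0.018). It was also called as lower at 100 µM without 200 µM replicate 2 (-0.30, adjusted p = 0.019), in a fit restricted to the 2 groups (-0.32, 0.0025) and after removal of the GC trend (-0.58, 0.033). The 2 doses did not differ detectably (-0.01 ± 0.13, 95% interval -0.31 to 0.29). An antisense gene shares 6.94% of its exons.

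Ratios within a library set the SNAI genes beside their partners, again chosen after the values were seen and without a share over other pairs of genes. The ratio of *SNAI2* to *TWIST1* per kb was 0.0741, 0.0952 and 0.0721 in control, 0.0845, 0.0977 and 0.0775 at 100 µM, and 0.174, 0.161 and 0.257 at 200 µM. Control and 100 µM overlapped, and 200 µM lay above both, at 2.42 times the control ratio (exact permutation p = 0.1, the smallest possible). The ratio of *SNAI1* to *SNAI2* averaged 12.9 ± 1.80 at 100 µM and 6.67 ± 1.69 in control, with no overlap (exact permutation p = 0.1). At 200 µM it was 7.12, 11.2 and 5.57, a mean of 7.98 ± 2.94, and overlapped control (exact permutation p = 0.6). The ratio of *CDH2* to *VIM* averaged 0.0378 ± 0.00195 in control, 0.0559 ± 0.00279 at 100 µM and 0.0255 ± 0.00320 at 200 µM, from 0.0255, 0.0223 and 0.0287, and the 3 groups did not overlap (exact permutation p = 0.1 for each pair).

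**Figure D3:**
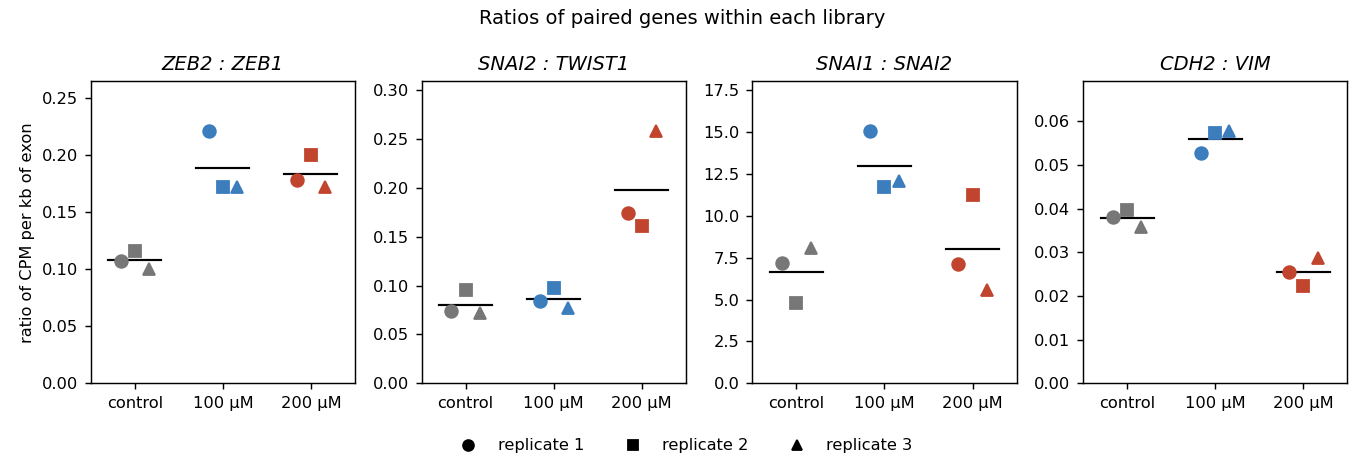
Ratio of CPM per kb of exon for 4 pairs of genes in each library, at control, 100 µM and 200 µM; symbols mark the replicate and lines the mean of 3. The ZEB2 to ZEB1 ratio is at most 0.116 in control and at least 0.172 in every treated library, and the CDH2 to VIM ratio is highest at 100 µM and lowest at 200 µM.

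*SOX9* (ENSG00000125398, chromosome 17, 72121020 to 72126420) is a neural crest and cartilage factor whose level in melanoma tends to run against that of its relative SOX10. Counts were low, at 36, 32 and 47 in the control libraries, 36, 20 and 43 at 100 µM, and 77, 70 and 84 at 200 µM. In CPM these were 1.25, 1.10 and 1.59, then 1.16, 0.649 and 1.39, then 2.79, 2.49 and 3.34. The 200 µM libraries lay above all others, and control and 100 µM overlapped. *SOX9* rose 2.18-fold at 200 µM against control (1.13 ± 0.29, adjusted p = 0.014) and 2.69-fold against 100 µM (1.43 ± 0.29, adjusted p = 0.0038). The first call was lost without control replicate 1 (1.09, adjusted p = 0.052) and without control replicate 2 (1.02, 0.058). The log2 fold changes were 1.02 (adjusted p = 0.018) and 1.30 (0.0052) without 200 µM replicate 3. At 100 µM against control it was not called (-0.30 ± 0.30, 95% interval -0.97 to 0.37). *SOX10*, a member of the SOX list, was higher than in control at both doses, by 0.63 ± 0.11 at 100 µM and 0.47 ± 0.11 at 200 µM on the log2 scale (SE). The lineage factor *MITF* went the other way, with means of 17.6 CPM at 100 µM and 20.0 CPM at 200 µM, against 28.6 CPM in control. Of 9 melanocyte markers tested, 2 were higher and 2 lower at 100 µM, and 3 higher and 2 lower at 200 µM. That is 44.4% and 55.6% called, against 37.1% and 37.3% of all genes.

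*WNT5A* (ENSG00000114251, chromosome 3, 55465715 to 55490539, minus strand), a secreted ligand of noncanonical Wnt signalling associated with invasive melanoma, was lower at 200 µM. It had 53.6, 57.2 and 48.6 CPM in control, 41.0, 45.1 and 48.2 CPM at 100 µM, and 28.1, 19.1 and 39.5 CPM at 200 µM. The 3 groups did not overlap, and replicate 3 at 200 µM lay nearest to the 100 µM libraries. *WNT5A* fell 1.84-fold at 200 µM against control (-0.88 ± 0.22, adjusted p = 0.012), a call kept in all 19 settings with values from -1.16 to -0.66, the first of them without 200 µM replicate 3. At 100 µM it was not called (-0.25 ± 0.22, adjusted p = 0.40), except in a fit restricted to the 2 groups (-0.24, 0.017). The difference between the doses (-0.63 ± 0.22, adjusted p = 0.042) was lost in 9 of 19 settings and was -0.93 (adjusted p = 6.4e-04) without 200 µM replicate 3 and -0.43 (0.038) without replicate 2.

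At 100 µM against control, 3 of the 9 genes tested were higher and none lower, where 37.1% of the 13968 genes tested were called, 18.9% as higher. The groups did not overlap for 7 of the 9, against 67% of all genes. At 200 µM against control, 4 were higher and 1 lower, where 37.3% of all genes were called, 19.8% as higher and 17.5% as lower, and 6 of 9 did not overlap, against 48.8%. At 200 µM against 100 µM, 3 were higher and 2 lower, where 44.4% of all genes were called, 22.4% as higher and 21.9% as lower, and 6 of 9 did not overlap, against 53.3%. The median size of the log2 fold change over the 9 genes was 0.33, 0.58 and 0.38 in the 3 comparisons, against 0.34, 0.35 and 0.40 over all genes. None of these shares over 9 genes was tested against that of all genes. Without 200 µM replicate 3 the called genes were 4 higher and 2 lower at 100 µM, 5 higher and 4 lower at 200 µM, and 3 higher and 3 lower between the doses. Calls over all genes were then also more frequent, at 56.1% of 14153 genes at 100 µM (28.7% higher, 27.5% lower), 53.8% at 200 µM (27.9% higher, 25.9% lower) and 54.2% between the doses (25.8% higher, 28.3% lower).

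**Figure D4:**
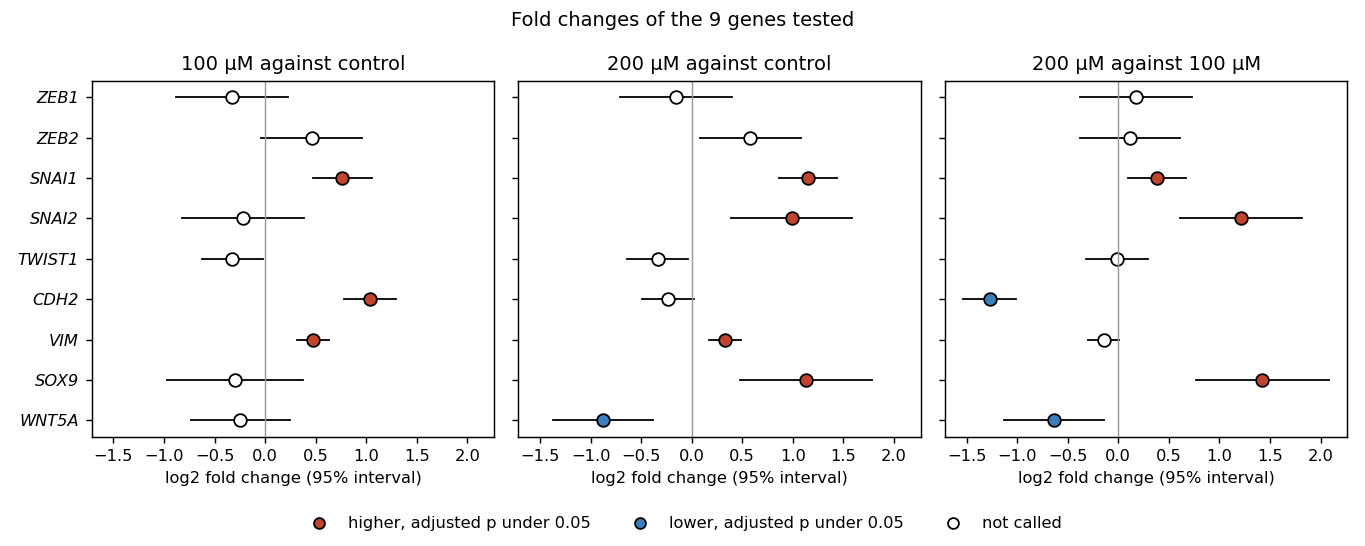
Log2 fold change of the 9 genes tested in each comparison, with 95% intervals from the edgeR fit of all 9 libraries; filled points have an adjusted p under 0.05. CDH2 is higher at 100 µM against control (1.04) and lower at 200 µM against 100 µM (-1.27), while SNAI1 and VIM are higher at both doses against control.

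Genes that work with these factors moved in both directions. Each list count stands beside the 37.1% of all genes called at 100 µM and the 37.3% called at 200 µM, against control, and was not tested against it. Counts between the doses stand beside 44.4%. Counts without 200 µM replicate 3 stand beside 56.1% at 100 µM, 53.8% at 200 µM and 54.2% between the doses. Of the genes named by rule from the lists, 38 of 39 kept their call at 100 µM, 46 of 47 at 200 µM and 43 of 44 between the doses without 200 µM replicate 3. Calls over all genes were more frequent in that setting, so a kept call there is a weak check. Among 20 tested members of a list of 24 other EMT factors and cofactors, 5 were higher and 3 lower at 100 µM, and 7 higher and 5 lower at 200 µM, against control (40% and 60% called, median log2 fold change -0.01 at both doses). The first count was 5 in place of 8 without control replicate 1 or 2 or without 100 µM replicate 1 or 3, with 2 higher, and the second was 15 without 200 µM replicate 3. *LOXL2*, a lysyl oxidase relative that acts with Snail, rose to 133 ± 3.38 CPM at 100 µM, against 40.7 ± 1.22 CPM in control (1.70 ± 0.08). *PRRX1*, a homeobox EMT factor, fell by 0.99 ± 0.18 on the log2 scale at 100 µM. The ID genes encode inhibitors that sequester partners of TWIST-type factors. At 200 µM *ID2* rose by 2.79 ± 0.13, to 35.2 ± 5.23 CPM, against 5.10 ± 0.193 CPM in control, while *ID3* fell by 2.62 ± 0.31 and *ID1* by 1.76 ± 0.14. At 100 µM *ID2* fell by 0.80 ± 0.14 and *ID3* rose by 0.87 ± 0.28, opposite to their directions at 200 µM. The rise of *ID3* was not called without 200 µM replicate 3 (0.89, adjusted p = 0.057).

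Of 36 epithelial junction and splicing genes 21 were tested, and 10 were higher and 1 lower at 100 µM, and 10 higher and 3 lower at 200 µM, against control (52.4% and 61.9% called, medians 0.49 and 0.65, against -0.01 and 0.00 over all genes). The members that rose included the plakophilin *PKP2* (1.00 ± 0.16) and the desmosome linker *DSP* (0.96 ± 0.11) at 100 µM. *PKP2* fell by 1.15 ± 0.17 at 200 µM. *CLDN4*, a tight junction claudin, fell to 5.43 CPM at 100 µM and rose to 31.3 ± 13.7 CPM at 200 µM, where it overlapped control, against 15 CPM in control (-1.46 ± 0.31 and 1.06 ± 0.30). *ESRP2*, a splicing factor of epithelial cells, was called as higher at both doses from means of 0.356 and 0.353 CPM, against 0.0462 CPM in control, which is a handful of reads. A gene can pass the filter on low counts through a single group, so the counts and medians of each list cover a selected set. Without that filter the epithelial count was 9 at 100 µM (8 higher, 1 lower) and 12 at 200 µM (9 higher, 3 lower). The share of all genes called in that setting is not given here. The count of epithelial genes called at 100 µM was 5 to 7 without any 1 of the control or 100 µM libraries and 14 without 200 µM replicate 3. At 200 µM it was 8 in place of 13 without control replicate 2, and 14 without 200 µM replicate 3. The summed epithelial markers given above were also higher at both doses, carried by *KRT18* (271 CPM at 100 µM and 303 CPM at 200 µM, against 192 CPM in control). *KRT10* fell to 31.6 CPM at 100 µM, against 44.6 CPM in control, *EPCAM* and *KRT5* were near or at 0, and the part of these markers was not tested.

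Of 27 mesenchymal structure genes tested, 16 were higher and 5 lower at 100 µM, and 12 higher, 6 lower and 9 not called at 200 µM, against control (77.8% and 66.7% called, medians 0.51 and 0.24). The count at 200 µM was 13 higher and 6 lower without 200 µM replicate 3. The proteoglycan *VCAN* rose to 23.3 CPM at 100 µM, against 3.11 CPM in control (2.90 ± 0.18). *FN1*, encoding fibronectin, rose to 766 CPM at 200 µM, against 206 CPM in control (1.90 ± 0.12), with *TGFBI*, a TGF-beta-induced matrix protein, at 1.56 ± 0.10. *NT5E*, the ecto-nucleotidase CD73, fell by 1.53 ± 0.17 at 100 µM, and the follistatin-like *FSTL1* fell by 0.88 ± 0.08 at 200 µM. At 200 µM against 100 µM, 7 were higher and 12 lower, with *COL5A2*, a collagen V chain, at 82.3 CPM, against 480 CPM at 100 µM (-2.54 ± 0.07). The summed fibroblast markers given above were likewise higher at 100 µM than in control and lower at 200 µM. Among the fibroblast markers, 6 were tested at 100 µM against control, with 5 higher and 1 lower. *LUM* averaged 15.39 CPM at 100 µM, against 6.999 CPM in control, and *PDGFRB* 28.6 CPM, against 10.1 CPM. *FAP* went the other way, at 10.4 CPM, against 19.3 CPM in control. *COL1A2* and *COL3A1* averaged at most 0.0921 CPM in any group. Both lists hold *COL1A1*, *FAP* and *THY1*, the last of which averaged at most 0.162 CPM. The part of other cells in these counts was not tested.

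The partners of N-cadherin gave mixed counts. Of 14 tested cadherins and catenins, 5 were higher and 3 lower at each dose against control (57.1% called). At 200 µM the count was 5 in place of 8 without control replicate 1 or in a fit restricted to the 2 groups, and 11 without 200 µM replicate 3. *CTNND1*, the p120 catenin that stabilises cadherins, stood at 368 CPM at 100 µM and 262 CPM at 200 µM, and it fell by 0.49 ± 0.06 between the doses. *JUP*, encoding plakoglobin, rose at both doses (1.63 ± 0.21 and 0.82 ± 0.21), as did *VCL*, encoding vinculin (0.86 ± 0.07 and 0.69 ± 0.07). *CDH13*, a cadherin without a cytoplasmic tail, moved opposite to *CDH2* at 100 µM against control and between the doses: it fell to 155 CPM at 100 µM and rose to 342 CPM at 200 µM, against 222 CPM in control (-0.51 ± 0.09 and 0.63 ± 0.09). *CDH19*, a glial and melanocytic cadherin, fell by 1.03 ± 0.23 at 100 µM. Beside *VIM*, of 10 intermediate filament and linker genes tested, 5 were higher and none lower at 100 µM, among them *NES*, encoding nestin (1.07 ± 0.13), and *SYNM*, encoding synemin (1.05 ± 0.08). At 200 µM 4 were higher and 2 lower, and the lower ones were the nuclear lamins *LMNB1* (-1.17 ± 0.08) and *LMNB2* (-0.55 ± 0.18, and -0.32 without 200 µM replicate 3).

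Of 30 tested genes of WNT5A receptors and its pathway, 15 were higher and 2 lower at 100 µM, and 13 higher and 3 lower at 200 µM, against control (56.7% and 53.3% called, medians 0.42 and 0.36). At 200 µM the count was 10 in place of 16 without control replicate 2, and 20 without 200 µM replicate 3. *PRICKLE1*, a planar polarity protein, rose by 2.04 ± 0.16 at 100 µM, and the receptor *FZD4* rose to 33.8 CPM at 200 µM, against 9.63 CPM in control (1.81 ± 0.14). The receptor *FZD6* fell at both doses (-0.71 ± 0.11 and -0.57 ± 0.11), and *ROR1*, a receptor for WNT5A, fell by 1.54 ± 0.24 at 200 µM against 100 µM. Between the doses 6 were higher and 9 lower, and 11 and 12 without 200 µM replicate 3. In the SOX family 7 of 11 were higher and none lower at 100 µM, led by *SOX2*, a stem cell factor (1.56 ± 0.20). At 200 µM 4 were higher and 3 lower, with *SOX13* up by 1.68 ± 0.09 and *SOX2* down by 0.91 ± 0.21. Of 22 TGF-beta ligands, receptors and SMAD genes, which act upstream of SNAI and ZEB genes in epithelia, 9 were higher and 4 lower at 100 µM and 5 higher and 6 lower at 200 µM. *TGFB1* rose by 0.94 ± 0.10 at 200 µM, *TGFB2* rose at both doses (2.14 ± 0.37 and 1.77 ± 0.37), and *INHBA*, encoding an activin subunit, fell at both (-2.49 ± 0.17 and -1.37 ± 0.16). *TGFB2* was a low transcript, at 0.493 ± 0.212 CPM in control, 2.19 ± 0.198 CPM at 100 µM and 1.69 ± 0.591 CPM at 200 µM. At 200 µM against control, leaving out replicate 3 gave 8 called intermediate filament and linker genes in place of 6, 9 SOX genes in place of 7 and 13 TGF-beta genes in place of 11.

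**Figure D5:**
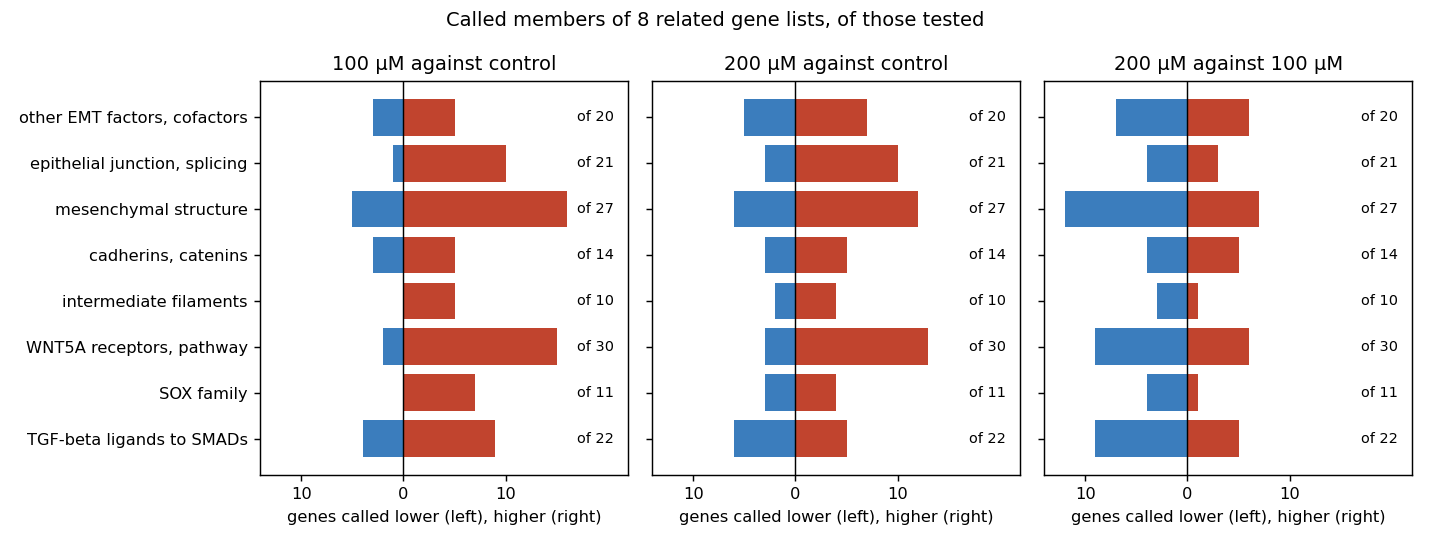
Number of genes called higher (to the right) and lower (to the left) at an adjusted p under 0.05 in 8 gene lists, for the 3 comparisons; the number tested stands at the right of each bar. Mesenchymal structure genes have 16 of 27 higher at 100 µM against control and 12 of 27 lower at 200 µM against 100 µM.

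The genes whose profile over the 9 libraries lay closest to each called gene were found by the root mean square difference of log2 CPM, centred on the mean of each gene, over 12710 other genes with a mean of at least 1 CPM. Closest to *CDH2* were *LAMC1*, a laminin chain (0.077), and *MYH10*, a nonmuscle myosin (0.087), where the median gene differed by 0.64. Closest to *SNAI1* were the co-chaperone gene *BAG3* (0.10) and *MAP1S*, a microtubule-associated protein gene (0.11), against a median of 0.59. For *VIM* the closest were *NUP98*, a nuclear pore gene (0.026), and *KDELR1*, a receptor of the secretory pathway (0.030), against 0.38. *WNT5A* was nearest to *FAM72B* (0.062) and *CEP70*, a centrosome gene (0.071), and *SNAI2* to the GTPase gene *RHOQ* (0.12). *SOX9* was nearest to the histone gene *H2BC4* (0.155) and to *ETV2* (0.157), an ETS factor, at its low counts.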

How the data were processed

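The authors deposited raw read counts per gene and library for 9 libraries, with no normalization. FastQC, HISAT2, featureCounts and DESeq2 are named with GRCh38 per the submitters' processing notes, without roles; neither annotation release nor strand setting is given in the sources used here. Per the labels' protocols, mRNA was captured on poly-T beads and made into libraries with a NEBNext Ultra RNA kit. Libraries were grouped by title.

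Annotated genes (20463) were tested and 2142 features without an Ensembl identifier (assembled transcripts) were left out. In R 4.3.3 with edgeR 4.0.16, filterByExpr left 13968 genes, TMM scaled the libraries, and a robust quasi-likelihood model with the group as its only term was fitted to all 9, leaving 6 residual degrees of freedom. P-values were adjusted by Benjamini-Hochberg over all genes within a comparison, and a gene was called under 0.05. The SE was taken from the log2 fold change and the square root of its F statistic. The edgeR p-values set each difference against a spread between these libraries that was moderated across genes. Of 1012 genes without a symbol, 408 were named by identifier.

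Gene positions, exon lengths and 3′ UTRs came from GENCODE release 29 and gave a transcript GC content for 13874 tested genes. The GC trend of a library is a lowess curve (span 0.3) of its log2 deviation against transcript GC, taken as an offset. All 10 genes are named; from each related list up to 3 called genes with the largest change per direction could be named, and others were chosen after their values were seen. The likeness measure used log2(CPM + 0.1). The 10 genes and the lists were chosen with earlier results of these data known. Alternatives were another scaling, DESeq2 1.42.0, other filters, the 2 groups alone, each library left out, a replicate block, GC correction and inclusion of assembled transcripts. Same-numbered libraries did not deviate together (r from -0.16 to 0.03), so the numbers were not taken as pairs. A further deposited table of 100 features held none of the 10 genes and was not used.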

Additional observations from a re-analysis of the deposited data

Results flagged for a closer look

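For 5 genes the effects of the 2 doses differed by the test of 200 µM against 100 µM itself, on the log2 scale. The log2 fold change was -1.27 for *CDH2*, 1.43 for *SOX9*, 1.21 for *SNAI2*, 0.38 for *SNAI1* and -0.63 for *WNT5A*, positive where 200 µM was higher. Relative to control, *CDH2* rose at 100 µM and was not called at 200 µM, whereas *SOX9*, *SNAI2* and *WNT5A* were called at 200 µM and not at 100 µM. The differences of *SNAI1* and *WNT5A* were lost in 8 and 9 of 19 alternative settings.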

How the results depend on the processing

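Of 513 recomputed fold changes of the 9 genes (27 results under 19 settings), 454 kept direction and side of the threshold, 22 lost a call, 24 gained one and 13 changed sign; the cause was not tested. Sign changes were all in differences not called in the fit of all 9 libraries: *ZEB1* at 100 µM gave 0.018 with the GC trend removed and 0.017 with the replicate block added, and at 200 µM 0.061 without 200 µM replicate 2 and -0.55 without replicate 3, its ends when 1 library was left out. For 200 µM against 100 µM, *ZEB1* gave -0.24 without 200 µM replicate 3 and 0.36 without replicate 2, -0.036 with GC removed and -0.055 with GC removed and the replicate block. *ZEB2* gave -0.235, 0.26, -0.073 and -0.079 under the same settings. *TWIST1* gave 0.028 without 100 µM replicate 3, -0.11 without 200 µM replicate 1, 0.11 without 200 µM replicate 2, 0.19 with GC removed and 0.17 with the replicate block too. Of these values, -0.55 and 0.36 for *ZEB1*, 0.26 for *ZEB2* and -0.11 for *TWIST1* kept the sign of the fit of all libraries. In the fit of the 2 groups alone, 8417 genes were called at 100 µM, against 5181, and 7 of the 9 genes described, against 3; with GC removed 5 were, with or without the replicate block. Between the doses 3 of 9 were called with the 2 groups alone or with the replicate block, against 5. The block changed no other member count without the GC term, and called 4264, 4369 and 5404 genes in the 3 comparisons. Leaving out 1 library called 3469 to 7943 genes at 100 µM, 3719 to 7614 at 200 µM and 4813 to 7668 between the doses, and 3 to 6, 3 to 9 and 3 to 6 of the members, the highest at each dose without 200 µM replicate 3. At 100 µM that library enters only through the shared filter, scaling and fit. Without it the fold changes given above for *ZEB1*, *ZEB2* and *TWIST1* at 100 µM changed little, while their calls were gained. Same-numbered libraries matched best in 2 of 18 cases. Per kb of principal transcript, control levels were 1224 for *VIM*, 21.8 for *CDH2*, 20.0 for *ZEB1*, 17.5 for *TWIST1*, 8.60 for *WNT5A*, 3.57 for *ZEB2* and 1.61 for *SNAI2*. Of 456 recomputed list counts, 438 stayed within 1.5 times. *SOX9*, *SNAI2* and *CDH1* rest on few reads, which limits their precision.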
